A study of Mus musculus with 10 samples.

Results

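Strong private regions are stretches of the mouse genome where a single sperm ATAC-seq library of 10 had a peak, and where that peak was a strong one. Overlapping intervals of the 10 deposited peak lists (1 bp or more in common) were joined into 113493 regions, and 88543 of them lay on chr1 to chr19 and held a peak of 1 library. Strong private regions were selected on the deposited q value, as those with a highest −log10 q of at least 6. This left 5088 strong private regions, 5.75% of the autosomal private regions, and 83455 weaker private regions. All libraries were treated together.

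Chromatin accessibility was measured by ATAC-seq in mature sperm from the cauda epididymis of wild-type C57BL/6JRccHsd males. From 4 weeks of age the males received a standard chow diet (F0 CD, n = 6) or the Western diet D12079B (F0 WD, n = 4) for 6 months, and each library came from 1 mouse. The sample titles give these group sizes, while the protocol in the labels and a later sentence of the methods exchange them. The study asked whether diet-induced obesity changes sperm chromatin accessibility. The lists held 13366 to 29532 peaks per library.

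In sperm, most histones are replaced by protamines, which pack the DNA tightly and leave little of it open to enzymes. ATAC-seq uses the Tn5 transposase, which cuts and tags DNA where it is accessible, and a peak caller then marks the places where cuts pile up over the local background. Runs of the dinucleotide CA, which read as TG on the other strand, are among the most common microsatellites of rodent genomes, and they mutate quickly in length.

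The sequences below are examples from the named strong private regions and not a balanced sample. Most hold CA or TG repeats, among them all those shown near start sites. Over all strong private regions, 48.5% had a run of at least 10 such units within 100 bp of the summit. Another 30.7% had neither a run nor at least 50% repeat-masked bases. Of the strong private regions within 1 kb of a protein-coding start site, 37.5% had a run. The named regions at Sirpb1a and 1700001F09Rik, whose sequences are not shown, held no stretch of at least 3 CA or TG units around the summit. Each sequence is 101 bases of the plus strand of GRCm38 (mm10), centred on the summit of the peak and read from the RefSeq reference. Capitals mark stretches of at least 3 CA or TG units. The first 5 lie under some of the highest summits.
Distal, nearest start site Gm5110, chr6:10147823-10147923: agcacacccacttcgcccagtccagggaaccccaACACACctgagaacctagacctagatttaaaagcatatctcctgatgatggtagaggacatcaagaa
Mypn, chr10:63205275-63205375: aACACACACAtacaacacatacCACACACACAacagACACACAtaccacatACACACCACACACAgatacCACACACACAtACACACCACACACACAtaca
Distal, nearest start site Gm40639, chr10:45034551-45034651: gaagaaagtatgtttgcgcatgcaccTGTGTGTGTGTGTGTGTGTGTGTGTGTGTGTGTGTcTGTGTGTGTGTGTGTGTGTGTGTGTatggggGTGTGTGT
Nckap5 intron, chr1:126623408-126623508: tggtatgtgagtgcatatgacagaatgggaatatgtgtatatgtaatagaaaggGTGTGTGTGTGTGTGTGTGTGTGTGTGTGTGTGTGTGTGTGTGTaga
Distal, nearest start site Gm20586, chr8:55346648-55346748: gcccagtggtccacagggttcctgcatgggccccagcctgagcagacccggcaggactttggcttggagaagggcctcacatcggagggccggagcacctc
The next 6 lie within 3 kb of the start site of a protein-coding gene.
Ccdc149, chr5:52404916-52405016: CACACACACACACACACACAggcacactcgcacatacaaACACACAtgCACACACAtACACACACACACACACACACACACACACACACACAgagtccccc
B3gat2, chr1:23761704-23761804: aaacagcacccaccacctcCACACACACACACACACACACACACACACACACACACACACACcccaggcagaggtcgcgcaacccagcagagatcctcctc
Dtd1, chr2:144616736-144616836: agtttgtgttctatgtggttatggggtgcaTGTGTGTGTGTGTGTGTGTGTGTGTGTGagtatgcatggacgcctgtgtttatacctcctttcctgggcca
Agtpbp1, chr13:59532911-59533011: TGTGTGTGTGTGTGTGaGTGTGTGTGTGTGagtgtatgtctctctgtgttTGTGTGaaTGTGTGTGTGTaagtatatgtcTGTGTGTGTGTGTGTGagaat
Foxp1, chr6:99027586-99027686: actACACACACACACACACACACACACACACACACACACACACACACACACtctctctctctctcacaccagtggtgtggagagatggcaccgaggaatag
Hoxc9, chr15:102979633-102979733: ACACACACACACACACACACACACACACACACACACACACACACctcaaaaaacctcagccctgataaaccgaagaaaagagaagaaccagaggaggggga
Long uninterrupted runs lay at or beside the summits near Gm40639, Nckap5, Ccdc149, B3gat2, Dtd1, Foxp1 and Hoxc9, with 14 to 24 units in the longest run. The Mypn and Agtpbp1 sequences consisted largely of short CA or TG stretches broken by other bases, and none of their stretches reached 10 units in these 101 bases. The sequence nearest to Gm5110 held a single stretch of 3 units and was wholly repeat-masked. The one nearest to Gm20586 held no such stretch and 0 repeat-masked bases.

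The values that chose the regions are given as a description. The highest −log10 q had a median of 6.84 and reached 40.8, and 54.9% of the strong private regions lay between 6 and 7. A value of at least 10 was found in 288 regions, of at least 15 in 19 and of at least 20 in 4. The reads at the summit, solved from the deposited fold and p value, ranged from 16 to 81 with a median of 20, against a median of 14 in weaker private regions. The strong private regions thus rested on few reads in absolute terms. Their median fold enrichment was 5.26 and their median width 240 bp, and 99.8% had a single summit. In their own lists they all ranked among the best 22.1% of peaks.

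Regions close to the threshold follow, without a test. Just inside, with a −log10 q of 6.00, lay chr1:190031733-190031934, which is distal, and chr18:60844733-60845023 in an intron of Tcof1, both of F0 CD replicate 3 with 24 reads at the summit. Just outside lay chr1:121767558-121767810 and chr10:6496631-6496841, both distal, and chr11:9021097-9021381 in an intron of Sun3. These last 3 regions were of F0 CD replicate 4, each with 18 reads at the summit.

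Strong private regions were rich in repeat DNA and CA/TG runs, more so than weaker private regions. A run of at least 10 uninterrupted CA or TG units lay in the window of 100 bp either side of the summit in 47.2% ± 8.00 of the strong private regions (SD, n = 10 libraries) and in 15.8% ± 2.65 of the weaker ones. In windows tiled every 5000 bp along the autosomes the share was 2.05%. Repeat-masked bases made up 50.4% ± 3.36 of the strong and 30.8% ± 2.02 of the weaker windows, against 33.4% of the tiled windows. Both differences had the same direction in 10 of 10 libraries. They were tested by the exact two-sided sign-flip permutation test over libraries, which gave p = 0.00195 and an adjusted p of 0.00260 over 8 measures for each. This p is the smallest that 10 libraries allow.

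The share of strong private regions with a CA/TG run was high in every library. In the F0 CD libraries it ranged from 37.3% to 55.7% with a median of 41.2%. In the F0 WD libraries it was 43.9%, 48.7%, 62.6% and 52.2%. The weaker private regions of the 10 libraries held a run in 11.3% to 19.5% of cases, so the 2 classes did not overlap. Read the other way, 2470 of the 15784 private regions with a run were strong (15.6%), and so were 2618 of the 72759 without one (3.60%).

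**Figure D1:**
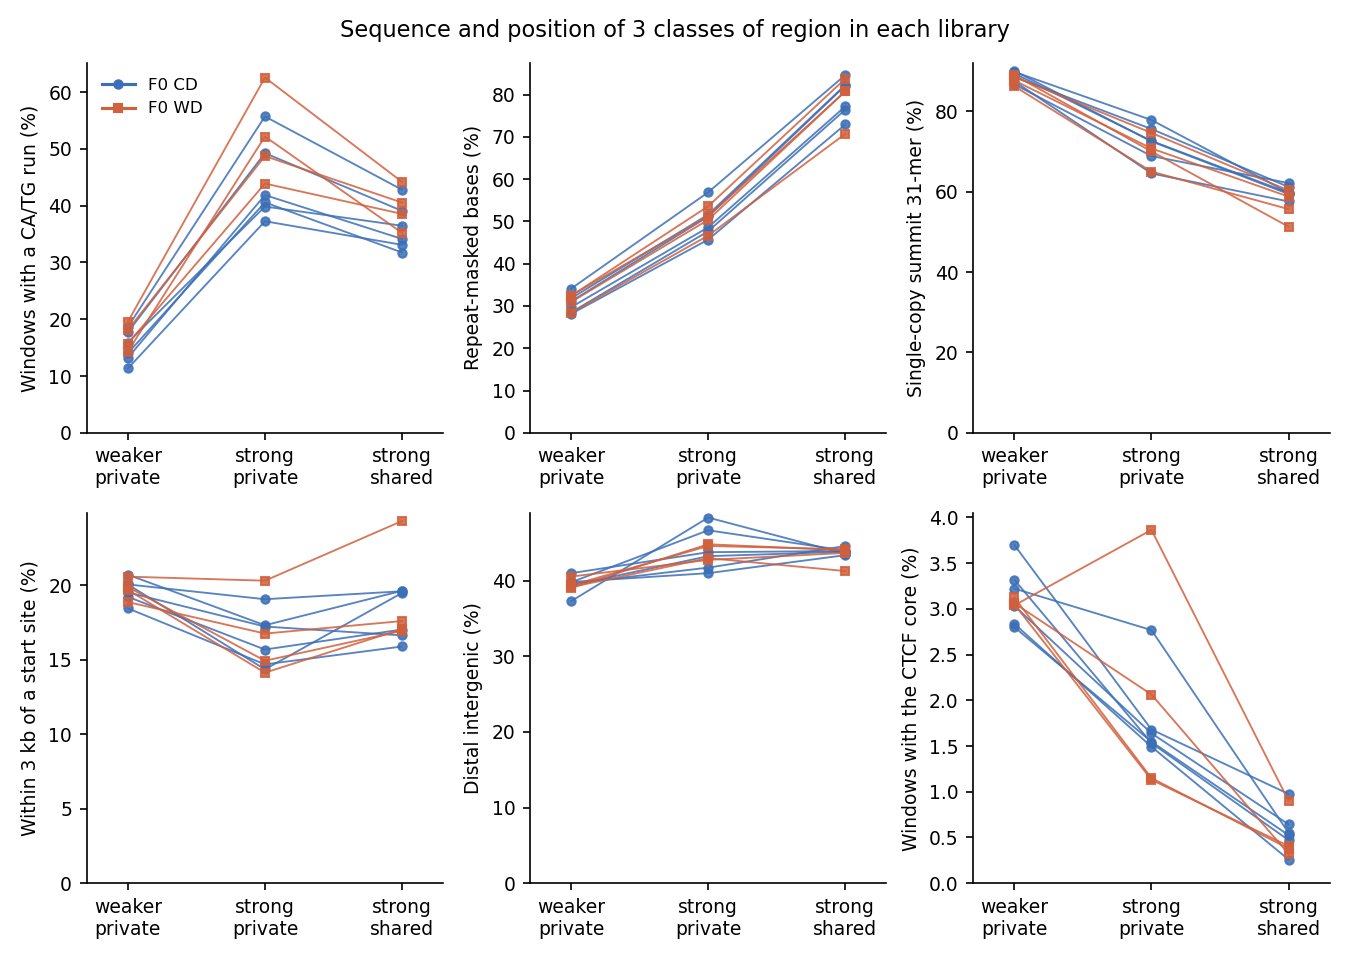
The 6 panels plot, for each library, a sequence or position measure (percent) in weaker private, strong private and strong shared regions; each line joins the 3 values of 1 library, blue circles are F0 CD and red squares F0 WD. CA/TG runs were found in 37.3% to 62.6% of strong private regions, above the 11.3% to 19.5% of weaker private regions in every library, and repeat-masked bases rose from class to class.

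The runs lay close to the summit. Among strong private regions with a run, the longest run had a median of 20 units and at most 45, and its nearest base was a median of 11 bp from the summit, with an upper quartile of 36 bp. The summit lay inside that run in 34.9% of these regions, against 29.5% in weaker private regions with a run. Of all strong private summits, 18.8% fell inside a run, of all weaker summits 5.03%, and of the centres of tiled windows 0.399%. Run length differed little, with medians of 20 units in weaker private regions and 18 in tiled windows. These shares are pooled over libraries and carry no test.

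**Figure D2:**
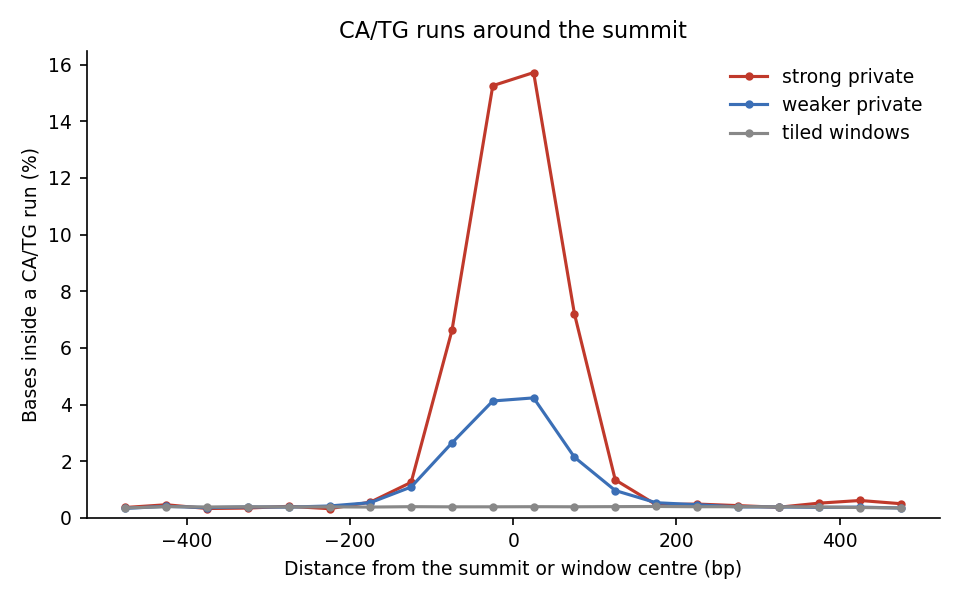
The vertical axis gives the percent of bases inside a CA/TG run of at least 10 units and the horizontal axis the distance from the summit (bp, bins of 50 bp) for strong private regions (red), weaker private regions (blue) and tiled windows (grey, distance from the window centre). In the 50 bp to the right of the summit 15.7% of the bases of strong private regions lay in a run, and beyond 150 bp the lines of the 3 classes lay close together.

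Interrupted repeats such as those near Mypn and Agtpbp1 escape the measure above. Stretches of at least 3 CA or TG units, a measure added after the data were seen, covered 20.6% ± 3.57 of the window in strong and 7.20% ± 1.11 in weaker private regions. In tiled windows they covered 1.55%. Among windows without a run of 10 units, stretches still covered 8.90% ± 2.92 in strong and 3.32% ± 0.534 in weaker private regions. Both differences had the same direction in 10 of 10 libraries (exact sign-flip permutation p = 0.00195 each). Other simple repeats were rarer. Runs of GA or TC lay in 4.87% ± 1.82 of strong and 2.36% ± 0.613 of weaker private windows, and AT runs in 0.348% ± 0.270 and 0.139% ± 0.0823.

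Repeat content went together with the number of copies of the summit sequence in the genome. The 31 bases centred on the summit occurred once in the reference in 71.3% ± 4.33 of strong and 88.4% ± 1.29 of weaker private regions, lower in 10 of 10 libraries (exact sign-flip permutation p = 0.00195, adjusted p = 0.00260). More than 10 copies were found for 21.3% of the strong and 7.09% of the weaker summits. The authors allowed several alignments per read pair before their filter on alignment quality, and the part of multi-copy sequence in these peaks was not tested. A wholly repeat-masked window was found in 7.63% of strong private regions and a window free of masked bases in 13.7%, against 3.34% and 29.4% of weaker ones.

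Base composition differed less. GC content was 47.5% ± 0.798 in strong and 49.1% ± 0.512 in weaker private windows and lower in 10 of 10 libraries (exact sign-flip permutation p = 0.00195, adjusted p = 0.00260). Tiled windows had 41.9%. CpG dinucleotides numbered 2.1 ± 0.214 and 2.2 ± 0.0761 per window, a difference of −0.17, and were lower in 7 of 10 libraries (exact sign-flip permutation p = 0.0234, adjusted p = 0.0234). Without F0 CD replicate 2 the CpG difference was −0.16 and no longer passed (exact sign-flip permutation p = 0.0586).

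By position, strong private regions lay less often near start sites. A start site of any annotated transcript lay within 3 kb of 16.4% ± 2.08 of strong and 19.7% ± 0.713 of weaker private regions, and 16.4% of tiled windows. Distal intergenic regions made up 44.0% ± 2.22 of the strong and 39.5% ± 0.988 of the weaker class, and 46.4% of tiled windows. Both differences had their direction in 10 of 10 libraries (exact sign-flip permutation p = 0.00195, adjusted p = 0.00260 each). The remaining strong private regions were intronic (1906), exonic (122) or just downstream of a gene (15).

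CTCF, a zinc finger protein that anchors chromatin loops, binds a motif whose core was searched as CCACNAGG on both strands. The core lay in 1.89% ± 0.839 of strong and 3.12% ± 0.256 of weaker private windows, lower in 9 of 10 libraries (exact sign-flip permutation p = 0.00586, adjusted p = 0.00670). F0 WD replicate 4 was the exception, with 3.86% against 3.04%. In tiled windows the share was 2.13%. GC boxes, searched as GGGCGG on both strands, lay in 1.94% ± 0.746 and 3.09% ± 0.317, and in 2.02% of tiled windows.

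All of the other differences were smaller among regions without a run. The repeat-masked difference went from 19.6 to 13.6 points and the single-copy difference from −17.1 to −7.34 points. When regions with a CA/TG run were left out of both classes, a comparison added after the data were seen, repeat-masked bases still made up 39.6% of the strong and 26.0% of the weaker windows (exact sign-flip permutation p = 0.00195, adjusted p = 0.00684). The single-copy share was still lower, with 85.3% against 92.6% (same p values), and so was GC content, with 48.6% against 49.7% (exact sign-flip permutation p = 0.00391, adjusted p = 0.00911). The promoter share was 17.9% against 20.3% (exact sign-flip permutation p = 0.0215, adjusted p = 0.0376). The distal share, 41.8% against 39.0%, no longer passed (exact sign-flip permutation p = 0.0410, adjusted p = 0.0574). Neither did CpG, with 2.16 against 2.29 per window (adjusted p = 0.150), nor the CTCF core, with 2.84% against 3.43% (adjusted p = 0.240), both by the exact sign-flip permutation test.

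By these measures the strong private regions fell into 3 sequence groups. A CA/TG run was present in 2470 regions (48.5%), 1055 regions (20.7%) had no run but at least 50% masked bases, and 1563 (30.7%) had neither. In weaker private regions the last group held 65.3%. The strong regions with neither feature had a single-copy summit in 94.9% of cases, a promoter position in 20.8% and the CTCF core in 3.90%, against 98.0%, 22.4% and 3.68% in their weaker counterparts. The median number of reads at the summit was 20 in each of the 3 strong groups.

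Strength and sequence changed together along the whole range of q values, on both sides of the threshold. The share of private regions with a CA/TG run was 7.53% where the −log10 q was under 2, 16.8% between 3 and 4, 35.0% between 5 and 6, 43.4% between 6 and 7 and 68.1% from 10 upwards. Repeat-masked bases went from 26.2% in the lowest to 68.5% in the highest bin. The single-copy share fell from 91.2% to 52.4% and the CTCF core from 3.63% to 0.347%. No step was seen at the threshold of 6, and the bins carry no test since q chose the classes.

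**Figure D3:**
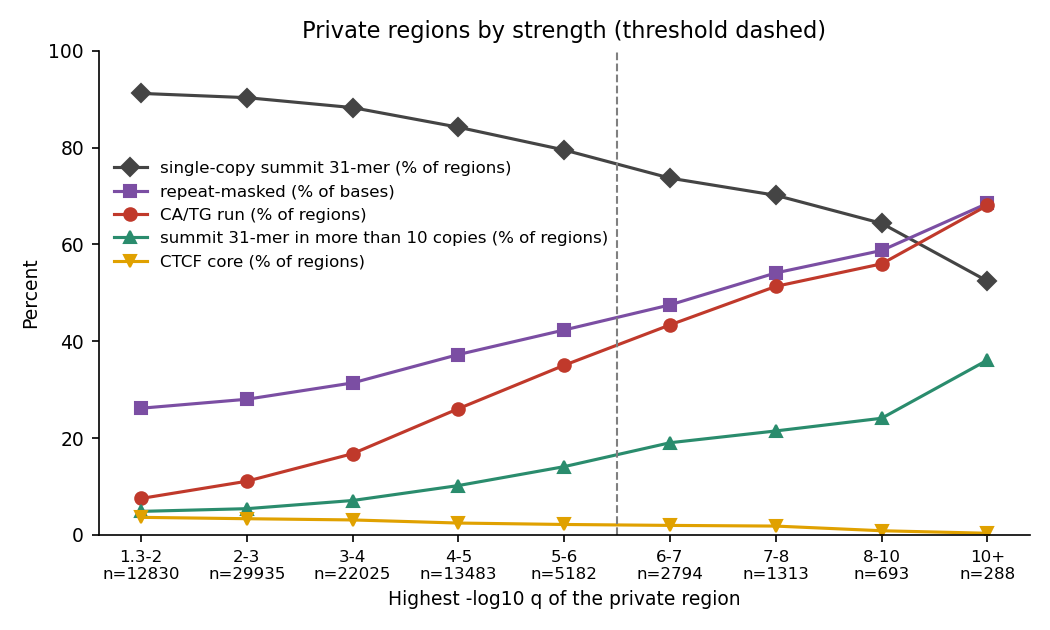
The horizontal axis bins all private regions of the 10 libraries by their highest −log10 q (n under each bin) and the vertical axis gives the percent of regions or bases with each feature; the dashed line marks the threshold of 6. CA/TG runs rose from 7.53% to 68.1% and single-copy summits fell from 91.2% to 52.4% without a step at the threshold.

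Strong regions that several libraries shared served as the other reference. In each library these were regions with a peak of at least 2 libraries and a −log10 q of at least 6 in that library, 889 to 5039 per library. Strong private regions were less repetitive than these, with 50.4% against 79.2% masked bases, and more often had a single-copy summit, with 71.3% against 58.6%. CA/TG runs lay in 47.2% of strong private and 37.6% of strong shared windows. The CTCF core was found in 1.89% and 0.543%, and GC content was 47.5% and 46.2%. Each of these differences had its direction in 10 of 10 libraries (exact sign-flip permutation p = 0.00195, adjusted p = 0.00313). The promoter share was 16.4% against 18.4%, lower in 9 of 10 libraries (exact sign-flip permutation p = 0.00586, adjusted p = 0.00781). Differences in CpG and distal share did not pass the exact sign-flip permutation test (p = 0.0879 and 0.654). The 11180 strong shared regions gave 22711 entries, as 1 region can count in several libraries. The 10 differences thus share regions, while the test treats them as independent.

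The excess of runs over strong shared regions depended on the window. Strong shared peaks were wider, with a median of 418 bp, and over the whole region in place of this window the difference turned to −6.66 percentage points (exact sign-flip permutation p = 0.0215, adjusted p = 0.0286). At a threshold of 5 it was 2.66 points and did not pass (exact sign-flip permutation test, adjusted p = 0.0807).

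By the rule no peak of another library overlapped these regions, and the distance to the nearest one was set beside that of weaker private regions. A peak of another library lay within 500 bp of 323 of them (6.35%) and within 1000 bp of 606 (11.9%), against 7.05% and 12.6% of weaker private regions. Within 10000 bp the shares were 61.6% and 64.7%. The median distance to the nearest peak of another library was 6917 bp for strong and 6388 bp for weaker private regions. In 158 cases neighbouring strong private regions of the same library were within 100 kb, and in 17 cases within 10 kb.

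Along the genome the strong private regions were found on all autosomes at like densities. They numbered 2.07 per Mb over the autosomes, from 1.76 per Mb on chr15 to 2.38 per Mb on chr5. In the first sequenced 5 Mb of the chromosomes lay 3.18% of them and in the last 5 Mb 4.48%, close to the 3.12% and 4.56% of weaker private regions. The X chromosome and the unplaced scaffolds, which the rule leaves out, each held 18 single-library regions of that strength.

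The highest −log10 q of all, 40.8, belonged to chr6:10147735-10148010 of F0 CD replicate 4, a distal region 24844 bp from the nearest start site, with 50 reads at the summit and a 14.1-fold enrichment. Its window was wholly repeat-masked without a CA/TG run, and its summit 31-mer had 1989 copies. The second, chr19:13537728-13538000 of F0 CD replicate 3, with 44 reads, lay 2338 bp from the olfactory receptor pseudogene Olfr1481-ps1 and had 37 copies. Both of these leading regions were thus in multi-copy sequence.

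The region at Mypn, which encodes a protein of the muscle sarcomere, was chr10:63205163-63205494 of F0 CD replicate 2, 1211 bp from a start site, with a −log10 q of 21.4 and 33 reads. Its summit 31-mer was single-copy, within the interrupted CA repeat shown above. The fourth, chr12:44065272-44065542 of F0 WD replicate 1, was distal with 36 reads and a summit 31-mer of 9894 copies. The fifth, chr10:45034440-45034741 of the same library, was also distal, with 34 reads and a TG run of 17 units at the summit.

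Of the next 5 by q value, 4 held a CA/TG run in their window. Among these were the distal regions chr3:121011499-121011780 of F0 CD replicate 4, with 35 reads, and chr13:96167610-96167905 of F0 CD replicate 2, with 30 reads, and intronic regions such as chr1:126623270-126623638 of F0 CD replicate 1 in Nckap5, with 39 reads. The last, chr8:55346560-55346829 of F0 WD replicate 4, was distal, had 34 reads and was the most GC-rich of the 10, with 60.2%. A peak of another library lay 86 bp from the chr3 region and 369 bp from the chr8 region.

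The share of strong private regions near start sites of protein-coding genes was close to that of the genome. Within 3 kb of such a start site lay 9.39% of them, 12.6% of weaker private regions and 10.2% of tiled windows. A start site of such a gene lay within 1 kb of 192 (3.77%), against 5.58% of weaker private regions, and 20 covered one. A CA/TG run was present in 37.5% of these 192 and in 10.4% of the weaker regions at the same distance, and CpG-island-like base composition in 4.17% and 6.96%. The strongest was chr5:52404808-52405107 of F0 CD replicate 4, 15 bp from a start site of Ccdc149, with a −log10 q of 16.4 and 31 reads. The region with the most reads of all, chr9:3026604-3026803 of F0 CD replicate 1 near the predicted gene Gm10717, held 81 reads on a background of 26.9, a fold of only 2.94, and lay within 500 bp of a peak of another library.

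The other 8 of the 10 named promoter regions had 21 to 30 reads. The region at B3gat2, a glucuronyltransferase gene, was chr1:23761635-23761862 of F0 CD replicate 3 and covered a start site, with 30 reads and a CA run of 21 units. The region at Dtd1, whose product removes D-amino acids from tRNA, was chr2:144616673-144616898 of F0 CD replicate 1 with 28 reads, 55 bp from a start site. At Tbc1d31 it was chr15:57913509-57913780 of F0 WD replicate 1 with 26 reads. At Stx5a, a Golgi syntaxin gene, chr19:8749319-8749598 of F0 WD replicate 3 covered a start site with 21 reads. At Agtpbp1, whose product trims glutamates from tubulin, it was chr13:59532836-59533087 of F0 CD replicate 2 with 21 reads. The remaining 3 lay at Sirpb1a (23 reads), 1700001F09Rik (25 reads) and Gm33543 (24 reads). Of these 10 promoter regions, those at Ccdc149, Dtd1, B3gat2 and Gm33543 had a CA/TG run in the window. The summit 31-mer had 2044 copies at B3gat2, 11 at Dtd1, 9 at 1700001F09Rik, 2 at Gm33543 and 1 at each of the others.

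Strong private regions near start sites were also counted by gene. Of 20780 protein-coding genes, 488 (2.35%) had at least 1 strong private region within 3 kb of a start site, and at 11 of them these came from 2 libraries. The rule bars regions of different libraries from overlapping, and a gene can have several start sites. The regions of a gene were 0.189 to 159 kb apart, and within 3 kb of each other at 2 of the 11. The 11 genes were Adsl, Apbb2, Apip, Cep170b, Fam53b, Ifi44l, Il18r1, Muc3, Rab15, Rptor and Sfi1. At Il18r1, which encodes a subunit of the interleukin-18 receptor, the regions chr1:40466276-40466497 of F0 WD replicate 3 and chr1:40466686-40466993 of F0 CD replicate 5 both held a CA/TG run. At Rptor, a subunit of the nutrient-sensing kinase complex mTORC1, chr11:119814225-119814444 of F0 WD replicate 4 and chr11:119859085-119859316 of F0 CD replicate 5 held none.

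Bodies of protein-coding genes held 2199 strong private regions (43.2%), in 1724 genes, against 47.7% of weaker private regions and 41.5% of tiled windows. The genes with the most strong private regions were named after their counts were seen. Magi2, a synaptic scaffold gene of 1.48 Mb, held 8 strong private regions from 6 libraries, 6 of them with a CA/TG run, beside 40 weaker ones. Tenm2, an adhesion gene of 1.23 Mb, held 7 from 4 libraries, beside 48 weaker ones. Caln1 held 7 within 0.478 Mb, from 5 libraries, beside 17 weaker ones. Alk, a receptor tyrosine kinase gene of 0.736 Mb, held 6 from 4 libraries, each with a run, beside 45 weaker ones. The largest counts, 13 and 11, belonged to the 4.43 Mb and 2.96 Mb that the annotation gives to Gm20388 and Fgfr2, where weaker private regions numbered 270 and 142.

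Gene lists, chosen with earlier results of these data known, are described by their counts and densities. Over all autosomes there were 2.07 strong and 33.9 weaker private regions per Mb. The 63 synaptic adhesion and long neuronal genes with autosomal positions held 133 strong private regions, 2.06 per Mb, in 49 genes and all 10 libraries. Weaker ones numbered 1704, or 26.4 per Mb, and the strong share was 7.24%, beside 5.75% over all autosomes. A CA/TG run was present in 58.6% of the 133, beside 48.5% of all strong private regions. Among the 133 was chr7:96222199-96222490 of F0 CD replicate 2 in Tenm4, a teneurin adhesion gene, which had 25 reads and no CA/TG run. Its summit 31-mer had 8043 copies.

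Developmental transcription factor genes held 8 strong private regions, 1.23 per Mb, and 298 weaker ones, 45.9 per Mb. The strong share of their private regions was thus 2.61%, below the 5.75% of all autosomes, and all 8 came from F0 CD libraries, which held 62.9% of all strong private regions. They included chr6:99027514-99027750 of F0 CD replicate 2, 241 bp from a start site of the forkhead gene Foxp1, with 20 reads. Another was chr15:102979562-102979815 of F0 CD replicate 5, 2530 bp from a start site of Hoxc9, with 24 reads. The third named region, chr2:115991610-115991838 of F0 CD replicate 3, lay in an intron of the homeobox gene Meis2 with 25 reads. All 3 held a CA/TG run in the window, and so did 75% of the 8. The summit 31-mer had 38 copies at Foxp1 and 1 at both Hoxc9 and Meis2.

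Energy metabolism and insulin signalling genes held 13 strong private regions, 2.78 per Mb. Of these, 7 came from F0 CD libraries and 6 from F0 WD libraries, which held 37.1% of all strong private regions. The same genes held 216 weaker ones, 46.3 per Mb, so that the strong share was 5.68%, beside 5.75% over all autosomes. A CA/TG run was present in 23.1% of the 13, beside 48.5% of all strong private regions. The named ones were intronic. They were chr7:68170260-68170561 of F0 CD replicate 4 in Igf1r, the receptor of insulin-like growth factor 1, with 20 reads, and chr10:42243015-42243280 of F0 WD replicate 3 in Foxo3, a forkhead factor under insulin control, with 18 reads. The third was chr13:101734928-101735157 of F0 WD replicate 2 in Pik3r1, the regulatory subunit of phosphoinositide 3-kinase, with 18 reads. Its summit 31-mer had 1108752 copies in the reference, against 3 at Igf1r and 1 at Foxo3.

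Imprinted genes held 6 strong private regions, 2.28 per Mb, 5 of them from F0 WD libraries, which held 37.1% of all strong private regions. Weaker ones numbered 148, or 56.2 per Mb, and the strong share was 3.90%, beside 5.75% over all autosomes. A CA/TG run was present in 16.7% of the 6. The named ones were chr17:12614649-12614898 of F0 WD replicate 1 in an exon of Slc22a2, an organic cation transporter gene, chr7:143179947-143180230 of F0 WD replicate 2 in an intron of Kcnq1, and chr17:12780672-12780883 of F0 WD replicate 3 in an intron of Airn, the noncoding RNA antisense to Igf2r. These held 21, 17 and 18 reads, and their summit 31-mers had 1, 1 and 20567 copies. The small counts of regions by diet were not tested.

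Genes that mark sperm and neighbouring cell types cover little of the genome, 0.575 Mb for spermatid and sperm genes, 0.282 Mb for epididymal epithelium genes and 0.604 Mb for immune cell genes. The 24 autosomal spermatid and sperm genes, protamine genes included, and the 17 epididymal epithelium genes held none, beside 21 and 15 weaker private regions. Peaks of at least 2 libraries lay within 3 kb of a start site for 0 of the spermatid and sperm genes, 3 of the epididymal genes and 2 of the immune cell genes. The share over all genes was not counted, so these numbers are a description only. The 12 immune cell genes held 3 strong private regions, 4.97 per Mb, and these were 8.33% of their private regions, beside 5.75% over all autosomes. These were chr1:138122657-138122888 of F0 CD replicate 4, 1937 bp from a start site of Ptprc, which encodes the leukocyte antigen CD45, chr9:120056580-120056905 of F0 WD replicate 3 in Cx3cr1, a chemokine receptor gene, and chr2:91114492-91114919 of F0 CD replicate 6 in Spi1, a myeloid transcription factor gene. The summit 31-mers of these 3 regions had 1, 21 and 1 copies, and a CA/TG run was present in 33.3% of the 3. The peak lists give no expression, so a missing promoter peak does not tell which cells were present.

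Large gene families were described in the same way. The olfactory receptor genes with 3 kb on either side held 7 strong private regions, or 0.534 per Mb, and the vomeronasal receptor genes 6, or 0.840 per Mb. The zinc finger protein genes of the Zfp series held 23, or 1.57 per Mb. Weaker private regions numbered 343, 83 and 579, or 26.1, 11.6 and 39.6 per Mb, beside 33.9 per Mb over all autosomes. The strong share of private regions was thus 2.00%, 6.74% and 3.82%.

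No difference between the diets in the number of strong private regions was detected. The F0 CD libraries held 244 to 1206 with a median of 437, and 3200 in all. The F0 WD libraries held 442, 630, 609 and 207, and 1888 in all. The means were 533 ± 355 in F0 CD and 472 ± 196 in F0 WD (SD), a difference of −61.3 ± 175 (SE) with p = 0.83 by the exact two-sided permutation test. The ranges overlapped, and without F0 CD replicate 2 the difference was 84.9, with the F0 WD mean the higher one (exact permutation p = 0.524). As a percent of private regions the strong ones made up 5.50% ± 1.89 in F0 CD and 5.80% ± 2.86 in F0 WD (exact permutation p = 0.843). The smallest p that 6 against 4 libraries allow is 0.00476. The rule leaves out every region with peaks of at least 2 libraries. These counts therefore cannot show a change in accessibility that several mice of a diet share.

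In sequence, too, the strong private regions of the diets differed by less than the test could separate from the spread of the libraries. A CA/TG run lay in 44.1% ± 6.98 of those in F0 CD and 51.8% ± 7.91 of those in F0 WD, a difference of 7.76 ± 4.88 (SE) percentage points (exact permutation p = 0.148, adjusted p = 0.933 over 8 measures). At a threshold of 8 this difference was 15.2 points (exact permutation p = 0.0333, adjusted p = 0.267). It was 4.35 points without F0 WD replicate 3 and 10.4 points without F0 CD replicate 4. Repeat-masked bases were 50.3% ± 3.92 and 50.5% ± 2.88, and 16.4% ± 1.80 and 16.5% ± 2.74 lay at promoters. No measure passed the test, each with an adjusted p of 0.933. The gap between strong and weaker private regions was also tested between diets, and for CA/TG runs it was 29.0 points in F0 CD and 34.9 points in F0 WD (exact permutation p = 0.143, adjusted p = 0.930).

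Libraries with a lower background had more strong private regions. The lowest background of a library, which is proportional to its depth, ranged from 2.11 to 4.42 reads per 200 bp. Its mean was 3.42 ± 0.794 in F0 CD and 2.86 ± 0.771 in F0 WD libraries (SD). Over the 10 libraries it correlated with the number of strong private regions with a Pearson r of −0.710 and a Spearman rho of −0.879. Without the 2 libraries farthest from the median depth, F0 WD replicate 2 and F0 CD replicate 3, r was −0.787. In the 6 F0 CD libraries alone r was −0.796, and no correlation was computed over the 4 F0 WD libraries. The percent of private regions that were strong gave an r of −0.888 and a rho of −0.927. Background and the q values that chose the regions come from the same deposited peaks, so these coefficients are a description and carry no test. The q values depend on depth through the peak caller, so depth and the number of strong regions cannot be told apart here.

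**Figure D4:**
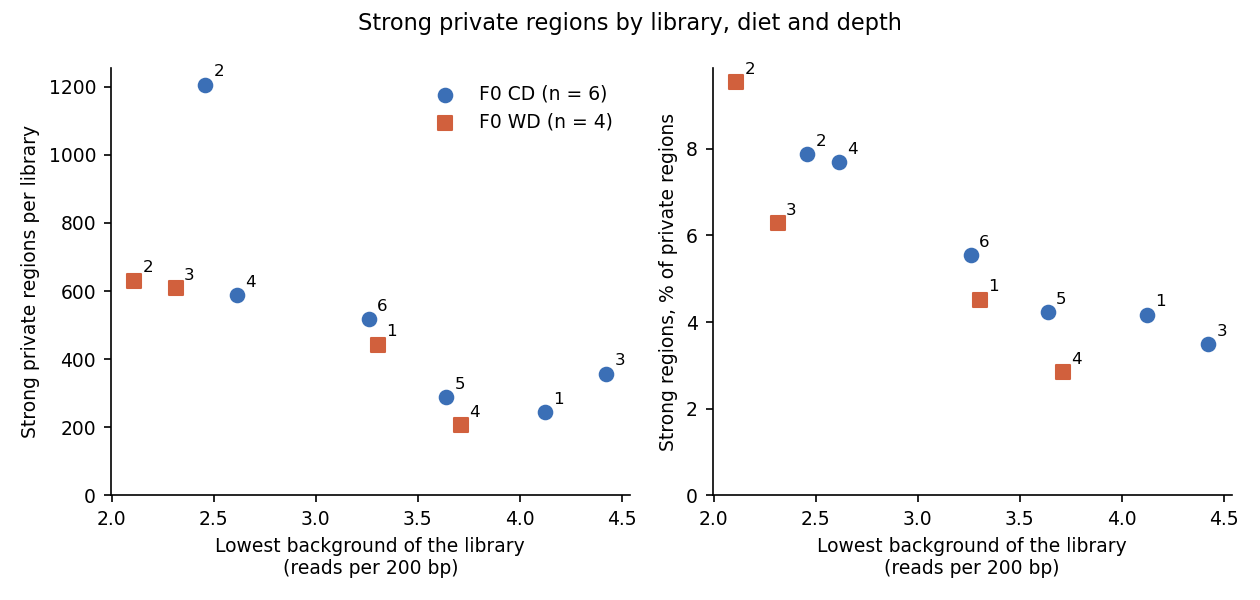
Each point is a library, numbered by replicate, with its lowest background (reads per 200 bp) on the horizontal axis and the number (left) or percent (right) of strong private regions on the vertical axis; blue circles are F0 CD and red squares F0 WD. F0 CD replicate 2 stood alone with 1206 regions at a low background, and the diets intermingled along the rest of the range.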

How the data were processed

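Peak lists from ATAC-seq of 10 individual mouse sperm samples were used. Per the methods and the submitters' notes on processing, reads were trimmed with Trim Galore 0.6.10, aligned to mm10 (GRCm38) with Bowtie2 2.4.5 with several alignments allowed per pair, freed of duplicates with Picard 2.24.0, filtered with SAMtools, shifted for the Tn5 offset, restricted to short fragments, and given to MACS2 2.2.7.1 for each library separately at a q of 0.05. The score in the deposited lists is the integer score of MACS2. The fold enrichment is a ratio of summit to background, as deposited. For p-values and q-values the authors deposited −log10 values. Total read counts were not used here, so precision is limited by the few reads per summit, and any floor covers counting error only.

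Reads and background were solved from fold and p (−log10 p under 60), and 99.994% of these summits gave a whole number within 0.001. Overlaps of 1 bp or more joined intervals. Sequence was measured over 100 bp either side of the strongest summit of the GRCm38 RefSeq reference, where lower-case bases are repeat-masked. Copies of the summit 31-mer were counted over the reference. CpG-island-like means a GC content of at least 55% and an observed to expected CpG ratio of at least 0.6. GENCODE M21 gave promoters (3 kb around any start site), exons, introns, 300 bp downstream, and distal regions otherwise.

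Within-library differences were tested by exact sign flips over 10 libraries (1024 patterns) and diets by exact permutation (210 assignments), with Benjamini-Hochberg adjustment over 8 measures. Correlations with depth are given without a test. The sign-flip test was checked on simulated data whose within-library differences varied by sampling alone. No pass was required of the test between diets. The region set, gene lists and measures were chosen with earlier results of these data known. Named were the 10 regions with the highest q value, the 10 highest within 1 kb of a protein-coding start site, up to 3 per gene list, and 3 on either side of the threshold. Some regions that this rule names are not reported here. The genes with members of several libraries and those with the most members were named after their values were seen. Alternatives were the q threshold, merging up to 500 bp, equal list lengths, the whole region as window, a 1 kb promoter, weaker regions under a −log10 q of 3, leaving out each library, and a replicate block. The software was numba 0.67.0, matplotlib 3.10.9, scipy 1.17.1, pandas 2.3.3 and numpy 2.4.6 in Python 3.11.15.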

Additional observations from a re-analysis of the deposited data

Results flagged for a closer look

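In 2 of 20 groups of values examined, 1 library stood far from the rest of its diet group. Chance flags about 1 in 20 groups. F0 CD replicate 2 held 1206 strong private regions, against 244 to 587 in the other F0 CD libraries, and also had the longest peak list. F0 CD replicate 5 had the CTCF core in 2.77% of its strong private regions, against 1.49% to 1.68% in the other F0 CD libraries.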

How the results depend on the processing

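All differences between strong and weaker private regions kept their direction under every alternative run. The CpG difference missed the threshold without F0 CD replicate 2, with −0.20 to −0.14 over the libraries left out, and among regions without a CA/TG run (−0.13), as did the distal share (2.78 points) and the CTCF core (−0.59 points) there.

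Against strong shared regions, with a threshold of 5 the CA/TG difference (2.66) and the promoter difference (−0.50) missed the test, CpG (0.26) passed it and the distal share turned to −0.36. With a threshold of 8 the CA/TG difference was 24.0 and the promoter difference −6.80, GC (0.51) and the CTCF core (0.54) missed it, CpG turned to −0.19 and the distal share (5.50) passed. Over whole regions the CA/TG difference turned to −6.66, CpG (0.11) passed and the CTCF core (0.22) missed. With a 1 kb promoter window the promoter difference (−0.60) missed and the distal share turned to −0.42, and with equal list lengths it was −0.22.

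No difference between the diets passed after adjustment under any alternative, and several changed sign. The CA/TG difference kept its sign, with 15.2 at a threshold of 8 (exact permutation p = 0.0333, adjusted p = 0.267) and 4.35 to 10.4 over the libraries left out. With a threshold of 8 the percent strong was −0.0463, CpG −0.0388, repeat-masked bases −2.10, the distal share 1.36 and the CTCF core −1.93. With equal list lengths the percent strong was −2.19, and over whole regions repeat-masked bases were −0.52. Over the libraries left out, the number differed by −131 to 84.9, the percent strong by −0.957 to 1.24, GC by −0.26 to 0.74, repeat-masked bases by −0.73 to 1.43, the promoter share by −1.51 to 1.06, the distal share by −1.89 to 0.48 and the CTCF core by −0.38 to 0.51. The cause of these changes was not tested. With the replicate block, whose smallest possible exact p is 0.125, the percent strong was −0.0127 and repeat-masked bases −0.245, and no result passed. The relation of the number to depth kept its direction under the 3 alternatives run for it. Samples with the same number gave correlations of −0.0115 to 0.0337, within the −0.0408 to 0.0494 of samples with different numbers. With 4 such pairs the check cannot settle whether the numbers pair the samples. Reads at the summit, 16 or more in strong private regions, limit what a single peak can show.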
